A study of Mus musculus with 27 samples.

Results

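The solute carriers described here are the 183 probe sets, of 12488 on the array, whose single annotated symbol starts with Slc and a digit, or with Slco. Slc10a1, Slc25a20 and Slc27a5 (5 probe sets) were left out by the same rule. The 183 probe sets stand for 151 of the 8252 singly named genes on the array, in 41 families, and 28 of these genes have more than 1 probe set. The rule used names only, so 3 genes that are not transporters came in with it: the scaffold proteins Slc9a3r1 and Slc9a3r2 and the adaptor-related Slc4a1ap.

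Liver RNA of 27 mice was measured on Affymetrix arrays, 1 mouse per array, and fell into 3 groups of 9 mice labelled Con, Veh and Dex. What the names stand for is not stated, and neither the strain, sex, age and genotype of the mice nor the agent, dose and time are given in the sources used here. Nothing is stated about what the mice of all groups shared beyond being mouse livers, nor whether mice of a group were treated together. All intensities are linear values already scaled by the authors, and all changes are log2 differences, first group minus second.

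Solute carriers are membrane proteins that move sugars, amino acids, nucleosides, organic ions, metals and inorganic ions along or against their gradients, mostly without using ATP directly. In liver they bring in bile acids, drugs and nutrients from blood, export glucose made by hepatocytes, and carry metabolites across the inner mitochondrial membrane. Their families are numbered by sequence likeness, and members of 1 family often share a kind of substrate.

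The members were set in classes by family number, after a known substrate of the family, so a single member can have another substrate. The largest class was amino acids and peptides with 46 probe sets, followed by metals and mitochondrial carriers with 23 each and inorganic ions with 22. Testing required an intensity over the array's own median in 9 or more arrays of 27. Of the 183, 109 (96 genes) were tested and 74 were not, and 46 of those 74 lay above the array median in 0 arrays. The dim probe sets include the neuronal transporters Slc6a4 (serotonin), Slc18a3 (acetylcholine) and Slc32a1 (inhibitory amino acids), the kidney transporters Slc22a6 (organic anions) and Slc34a1 (phosphate), and the intestinal glucose transporter Slc5a1. Of the mitochondrial carriers 19 of 23 probe sets were tested, of the amino acid and peptide transporters 21 of 46. Since a probe set could pass through 1 group alone, counts over the tested members describe these members only. Of 21 transporter genes listed by name, 13 have a member probe set and 12 a tested one. The monocarboxylate carrier Slc16a1 was too dim to test, and genes without a member probe set, among them Slco1a1, Slco1a4, Slco1b2, Slc22a7, Slc25a13, Slc39a14 and Slc40a1, were not analysed here.

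The tissue label was set beside hepatocyte markers: of 10 listed 8 were measured, and all 8 lay above the median of every array. The 3 measured exocrine pancreas markers also lay above it in 26 or 27 arrays. Being above the median alone therefore does not tell liver from other tissue. Array medians lay between 17.6 and 33.3 and trimmed means between 100.1 and 100.2. The median change of all 6784 tested probe sets was -0.19 in Veh vs Con, -0.20 in Dex vs Con and -0.03 in Dex vs Veh, and with quantile normalization -0.02, -0.04 and -0.04. The beta-actin control's 3'/5' signal ratio, which grows with RNA degradation, was 0.947 ± 0.243 (log2, SD, n = 9) in Con, 1.27 ± 0.318 in Veh, and 0.886 ± 0.169 in Dex. It differed between Dex and Veh (two-sided exact permutation test, adjusted p = 0.0137 over 9 tests) and did not pass between Veh and Con (exact adjusted p = 0.0705). With this ratio as a covariate, 12 members changed in Dex vs Con (beside 16.1% of all tested probe sets), 0 in Dex vs Veh (0.0147%) and 1 in Veh vs Con (0.486%). In bulk liver, fewer cells of a type and less RNA per cell cannot be told apart. The 3 comparisons share arrays, so their values are not independent of each other.

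Dex vs Con held most of the changed members. By limma with Benjamini-Hochberg adjustment over all tested probe sets (threshold 0.05), 13 of the 109 members changed, 1 higher and 12 lower in Dex. Of all tested probe sets 16.4% changed, 3.26% higher and 13.2% lower, so the members' share of 11.9% was below the background. The largest fall was that of Slc22a30, an organic anion transporter family member, the next that of the taurine transporter Slc6a6, and the only rise that of the equilibrative nucleoside transporter Slc29a1. The other falls were those of 4 ion transporters, 4 metal transporters, the orphan family member Slc22a23 and the Golgi carrier Slc35b2. Without an adjustment 33 members had p under 0.05, 4 higher and 29 lower, beside 31.5% of all tested probe sets, 6.96% higher and 24.6% lower. With quantile normalization 9 members changed, 2 higher and 7 lower, beside 9.7% of all tested probe sets. Without the arrays Dex 1 to 3, which held many of the extreme Dex values and were left out after the values were seen, 5 changed, 1 higher and 4 lower, beside 5.97% of all. The count was 8 without Dex 2, 8 without Dex 4 and 23 without Dex 6, where 12.1%, 12.1% and 19% of all tested probe sets changed.

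**Figure D1:**
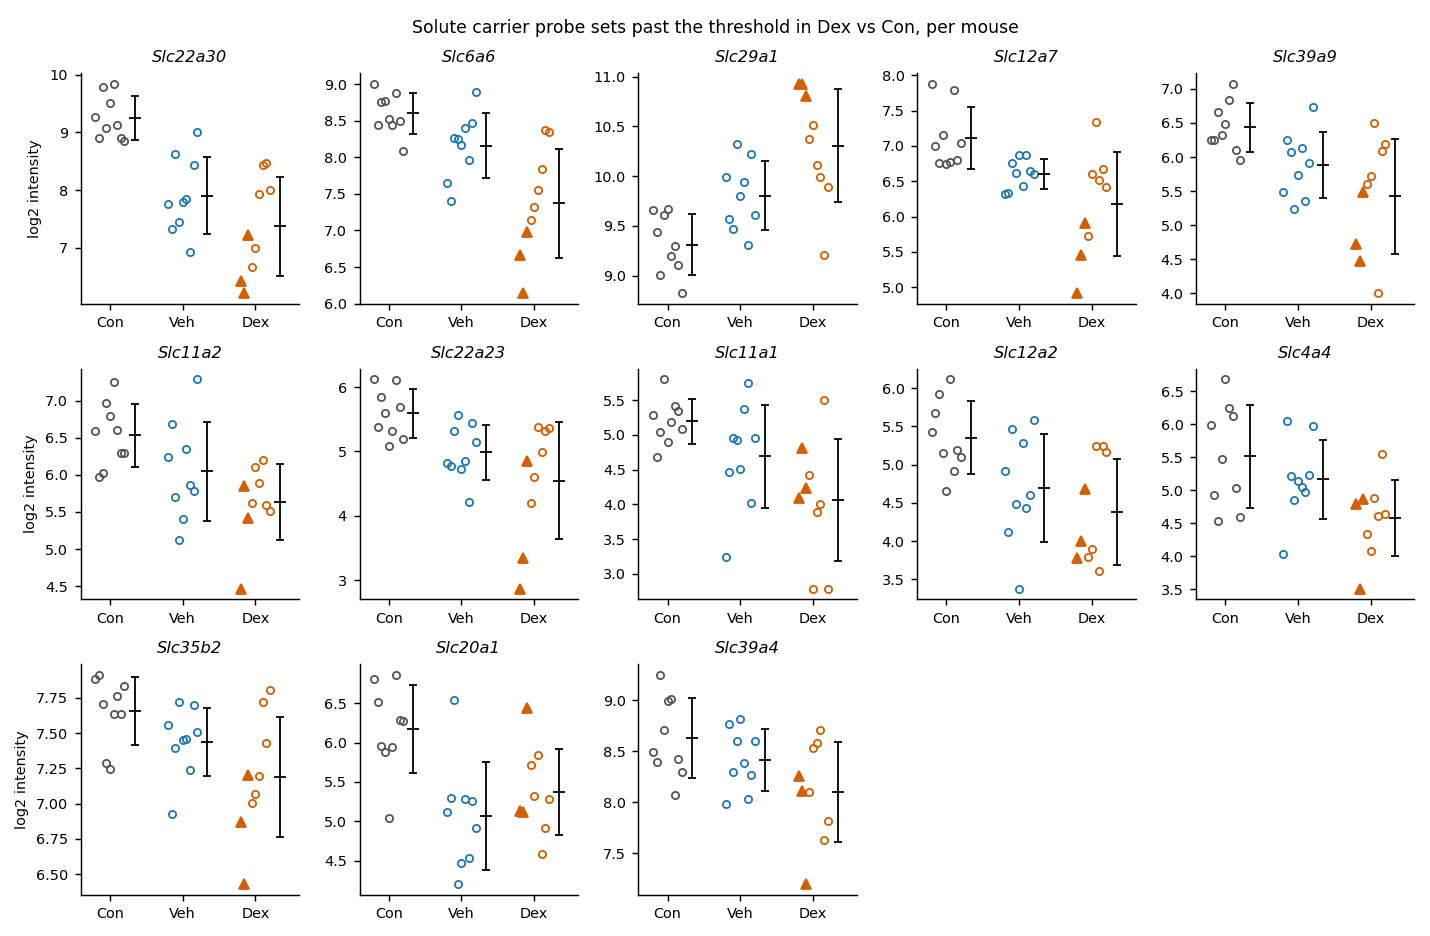
Log2 intensity per mouse (vertical axis, 1 scale per panel) in Con, Veh and Dex (horizontal axis) for the 13 solute carrier probe sets past the threshold in Dex vs Con. Each point is 1 mouse, spread sideways for legibility, filled triangles are Dex 1 to 3, and the bar shows mean and SD of 9 mice; in Slc22a30 all 9 Dex mice lie below all 9 Con mice.

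The largest fall and the only rise are shown first with the DNA before their genes, since their upstream sequences differ in base composition. The 250 bases before the outermost start in RefSeq's GRCm38.p6 annotation are given 5′ to 3′ on the gene's strand, in lower case with CG pairs in capitals. They lie at chr19:8405106-8405355 (minus strand) for Slc22a30 and at chr17:45599619-45599868 (minus strand) for Slc29a1, for which the annotation gives 8 starts.
Slc22a30: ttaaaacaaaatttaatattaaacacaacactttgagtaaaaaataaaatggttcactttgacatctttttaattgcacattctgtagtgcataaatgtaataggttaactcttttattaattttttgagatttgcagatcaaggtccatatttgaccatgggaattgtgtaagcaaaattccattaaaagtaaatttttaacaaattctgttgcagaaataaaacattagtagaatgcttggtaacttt
Slc29a1: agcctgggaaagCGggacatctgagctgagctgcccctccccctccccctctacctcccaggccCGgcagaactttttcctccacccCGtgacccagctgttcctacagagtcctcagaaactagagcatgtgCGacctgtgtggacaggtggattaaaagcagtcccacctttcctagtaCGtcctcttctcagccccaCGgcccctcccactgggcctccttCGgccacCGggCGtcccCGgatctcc

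G and C made up 25.6% of the Slc22a30 window, with 0 CG pairs, and 62.4% of the Slc29a1 window, with 10 CG pairs. Over the 123 solute carrier genes with an entry, of 151, the median was 60.0% with 13 CG pairs, and over all 27025 genes with an entry it was 52% with 6. On either strand, the GC box letters GGGCGG stood in 56.9% of the solute carrier windows and in 33% of all windows. TATAAA stood in 4.07% against 13%, CCAAT in 29.3% against 34.5%, and AGAACA, a half-site of the glucocorticoid receptor motif, in 13% against 16.1%. The solute carrier windows are part of the windows they are set against. Those 27025 windows also cover genes without a probe set on the array, so the sets are unlike in more than gene family. Whether any of these differences is particular to solute carriers, or goes beyond their base composition, was not tested. None of these letters is in either printed window. Of the 13 changed genes 9 have an entry, and 4 of these hold GGGCGG, 1 CCAAT, 0 TATAAA and 0 AGAACA.

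Slc22a30 belongs to the family of organic anion and cation transporters and lay above the array median in 27 arrays. Its intensity was 461.4 to 919.8 in Con (median 557.2), 121.9 to 513.0 in Veh (median 222.0) and 74.1 to 353.4 in Dex (median 149.0). All 9 Dex mice lay below all 9 Con mice, and Veh reached into the range of both. Complete separation with Dex lower was seen in 0.56% of all tested probe sets, and Slc22a30 was the only member with it. The change was -1.88 ± 0.289 (SE) in Dex vs Con, a 3.68-fold fall (limma adjusted p = 2.37e-04). It was -1.35 ± 0.289 in Veh vs Con (adjusted p = 0.00970) and -0.53 ± 0.289 in Dex vs Veh (adjusted p = 0.374). The 5 lowest Dex values, 74.1 to 149.0, were those of Dex 1 to 5, and without Dex 1 to 3 the change against Con was -1.50 (adjusted p = 0.00536). Another probe set is annotated to both Slc22a28 and Slc22a30, so the gene's own share is uncertain. That shared probe set changed by -1.32 ± 0.225 in Dex vs Con (adjusted p = 5.67e-04) and by -0.97 ± 0.225 in Veh vs Con (adjusted p = 0.0183).

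Slc22a23, an orphan of the same family, ranged from 33.8 to 69.6 in Con, 18.5 to 47.5 in Veh and 7.3 to 41.6 in Dex, with Con and Dex overlapping. It fell by 1.04 ± 0.292 in Dex vs Con (adjusted p = 0.0162), and in Dex 5 of 9 mice lay above their array's median. Without Dex 1 to 3 its change was -0.62 (adjusted p = 0.116). Of the 10 tested organic ion and bile acid transporters, 8 were lower in Dex than in Con and 2 were called lower, beside 13.2% of all tested probe sets. The class median was -0.35, beside -0.20 over all, and -0.19 with quantile normalization, beside -0.04. Slc22a18, an organic cation transporter family member, ranged from 339 to 504 in Con and 241 to 507 in Dex (-0.18 ± 0.132, adjusted p = 0.356).

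Slc6a6 takes up taurine, the amino acid to which mouse liver joins most bile acids. Its brighter probe set ranged from 271.6 to 514.3 in Con (median 368.8), 168.6 to 474.5 in Veh (median 304.3) and 70.6 to 332.2 in Dex (median 159.8). Dex 8 and Dex 9, at 332.2 and 325.1, were the only Dex mice within the Con range, and Dex 1 to 3 were the lowest at 70.6 to 125.6. The change was -1.23 ± 0.234 in Dex vs Con, a 2.34-fold fall (limma adjusted p = 0.00132), -0.84 without Dex 1 to 3 (adjusted p = 0.0180). It was -0.44 ± 0.234 in Veh vs Con (adjusted p = 0.250) and -0.79 ± 0.234 in Dex vs Veh (adjusted p = 0.104). A second, dimmer probe set of Slc6a6 ranged from 7.5 to 53.1 in Con and 7.6 to 46.7 in Dex, with a change of -0.10 ± 0.464 (adjusted p = 0.906).

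Slc29a1 lets nucleosides such as adenosine pass membranes in both directions. The brighter probe set lay at 453.0 to 816.1 in Con (median 628.8), 635.4 to 1284 in Veh (median 893.7) and 593.2 to 1951 in Dex (median 1326). All Dex mice but Dex 8 lay above all Con mice, and Dex 1 to 3 were the highest at 1786 to 1951. The change was 0.99 ± 0.191 in Dex vs Con, a 1.99-fold rise (limma adjusted p = 0.00146), and 0.70 without Dex 1 to 3 (adjusted p = 0.0238). It was 0.49 ± 0.191 in Veh vs Con (adjusted p = 0.119) and 0.50 ± 0.191 in Dex vs Veh (adjusted p = 0.203). The dimmer probe set, at 25.4 to 73.1 in Con and 17.8 to 56.5 in Dex, had a change of the other sign, -0.29 ± 0.277 (adjusted p = 0.488), so the rise rests on 1 probe set.

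Besides Slc29a1 the class holds the Slc35 family, mostly carriers of the Golgi and endoplasmic reticulum. Of its 8 tested probe sets 7 lay lower in Dex than in Con and 1 was called. Over the whole array 4571 of 6784 tested probe sets lay lower and 13.2% were called lower. The family's median was -0.42, beside -0.20 over all tested probe sets, and with quantile normalization -0.22 (6 of 8 lower), beside -0.04. Slc35b2, which brings the sulfate donor PAPS into the Golgi, fell by 0.47 ± 0.156 (adjusted p = 0.0391), from 152.1 to 241.1 in Con to 86.1 to 223.6 in Dex, with overlap. That call ended without any of Con 1, 2, 3, 6, 7, 8 and 9 and Dex 1, 2, 4 and 5, with adjusted p from 0.0534 to 0.0914. Slc35b1, a carrier of the endoplasmic reticulum, had a change of 0.08 ± 0.189 in the same comparison (adjusted p = 0.814).

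Metal transporters and inorganic ion transporters were the classes with most falls, 4 of 15 and 4 of 11 tested probe sets, beside 13.2% of all. Against Con, 12 of 15 metal probe sets and 9 of 11 ion probe sets were lower in Dex, with medians of -0.51 and -0.41, beside a median of -0.20 over all tested probe sets. With quantile normalization 11 of 15 and 9 of 11 were lower, with medians of -0.33 and -0.22, and the calls came to 2 and 1, beside 6.85% of all called lower there. Over the whole array dim probe sets stood lower: the dimmer 3392 tested probe sets had a median of -0.29 in Dex vs Con and the brighter 3392 one of -0.12.

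Among metals, the changed members were the zinc transporters Slc39a9 and Slc39a4 and the iron and manganese transporters Slc11a2 and Slc11a1. Slc39a9 ranged from 62.1 to 135.0 in Con (median 80.3), 37.7 to 107.0 in Veh (median 60.2) and 16 to 90.2 in Dex (median 48.6), and fell by 1.02 ± 0.272 (adjusted p = 0.0122). The Dex mice spread widely: Dex 7, Dex 2 and Dex 1 had 16, 22.2 and 26.4, while Dex 6 had 90.2. Slc11a2 fell by 0.90 ± 0.249 (adjusted p = 0.0150), from 63.0 to 152.2 in Con to 22.1 to 73.8 in Dex, and its second probe set had a change of -0.47 ± 0.285 (adjusted p = 0.264). Without Dex 1 to 3 the calls of Slc39a9 and Slc11a2 ended (adjusted p = 0.101 and 0.0878).

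Slc11a1 is known from macrophages, where it moves metal ions out of the phagosome. It ranged from 25.7 to 55.8 in Con (median 36.4), 9.5 to 53.7 in Veh (median 30.4) and 6.9 to 45.4 in Dex (median 17.1), and fell by 1.13 ± 0.327 in Dex vs Con (adjusted p = 0.0188). In Dex 3 of 9 mice lay above their array's median. Of the 10 listed Kupffer cell and macrophage markers 9 were measured and 8 tested, and in Dex vs Con 0 of 8 were higher, with a median of -0.61 and 1 call, Cd5l at -0.99 (adjusted p = 0.0172). Over the whole array 32.6% of tested probe sets were higher and 13.2% were called lower, with a median of -0.20. The mean log2 level of this list was 5.38 to 6.43 in Con, 4.75 to 6.87 in Veh and 4.71 to 6.41 in Dex, and of its tested markers only Adgre1 reached the floor of 2.6, in Veh. Of the 8 tested hepatocyte markers 6 were higher in Dex than in Con, with a median of 0.24. Of these markers 3 were called higher and 0 lower, beside 3.26% and 13.2% of all tested probe sets. The part of either list in the fall of Slc11a1 was not tested.

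Slc39a4, a zinc importer, fell by 0.52 ± 0.185 (adjusted p = 0.0498), from 268 to 608 in Con to 147 to 418 in Dex. This value lies at the threshold, and the call ended in 20 of 27 sets that left out 1 array (all but those without Con 7, Con 9, Veh 1, Veh 7, Dex 5, Dex 6 and Dex 7), with adjusted p from 0.0506 to 0.104. Its second probe set had a change of -0.09 ± 0.242 (adjusted p = 0.835). The copper importer Slc31a1 had a change of -0.07 ± 0.134 in Dex vs Con (adjusted p = 0.750). Slc39a1, a zinc importer, had a wide spread in every group, 247 to 1022 in Con, 227 to 1045 in Veh and 129 to 1215 in Dex (-0.21 ± 0.383, adjusted p = 0.747). Slc30a3, a zinc transporter known from synaptic vesicles, had a change of 0.34 ± 0.154 (adjusted p = 0.122), and Slc30a4, an exporter of zinc, one of -1.05 ± 0.396 (adjusted p = 0.0659).

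Among inorganic ions, the potassium-chloride cotransporter Slc12a7 had values of 107.3 to 235.8 in Con (median 128.1), 79.8 to 117.5 in Veh (median 98.1) and 30.2 to 162.3 in Dex (median 85.3). Dex 1 to 4, at 30.2 to 60.0, lay below every Con and Veh mouse, and Dex 6 lay inside the Con range. It fell by 0.93 ± 0.233 in Dex vs Con (adjusted p = 0.00897), and by 0.56 without Dex 1 to 3, which ended the call (adjusted p = 0.0935). The sodium-potassium-chloride cotransporter Slc12a2 fell by 0.97 ± 0.303 (adjusted p = 0.0278), from 25.1 to 69.3 in Con to 12.2 to 37.8 in Dex. The sodium bicarbonate cotransporter Slc4a4 fell by 0.93 ± 0.304 (adjusted p = 0.0356), from 23.3 to 102.5 in Con to 11.4 to 46.8 in Dex. Both are dim, with 3 and 4 of 9 Dex mice above their array's median. The call of Slc12a2 ended without any of Con 3, Con 6, Dex 1, Dex 2, Dex 4 and Dex 7 (adjusted p from 0.0513 to 0.0593), and that of Slc4a4 without any of Con 1, 4, 5, 6 and 7 and Dex 2, 4 and 5 (adjusted p up to 0.0807). The anion exchanger Slc4a2 had a change of -0.43 ± 0.156 (adjusted p = 0.0565).

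The sodium-phosphate cotransporter Slc20a1, which also serves as a receptor for retroviruses, was lower in both Veh and Dex than in Con. It ranged from 33 to 116.1 in Con (median 77.1), 18.4 to 92.9 in Veh (median 34.8) and 24.1 to 86.8 in Dex (median 39). Veh 3, at 92.9, stood apart from the rest of its group, while Con 5 had the lowest Con value, 33, and Dex 3 the highest Dex value, 86.8. The change was -1.10 ± 0.275 in Veh vs Con (limma adjusted p = 0.0261), -0.80 ± 0.275 in Dex vs Con (adjusted p = 0.0446) and 0.30 ± 0.275 in Dex vs Veh (adjusted p = 0.606). In Dex vs Con the call ended without any Con mouse but Con 5 and any Dex mouse but Dex 3 and Dex 6 (adjusted p from 0.0507 to 0.0899). The chloride-bicarbonate exchanger Slc4a1 of red cells ranged from 7.6 to 57.1 in Con and 1.7 to 49.4 in Dex (-0.39 ± 0.561, adjusted p = 0.666). Of the red cell markers 4 of 8 were measured and 3 tested, with 1 call in Dex vs Con, Alas2 at -1.97 (adjusted p = 0.0178). The other tested ones were Hba-a1 at 0.57 (adjusted p = 0.0662) and Hbb-b2 at -0.17 (adjusted p = 0.805), and 13.2% of all tested probe sets were called lower. The list's mean log2 level was 7.97 to 8.66 in Con, 7.46 to 8.99 in Veh and 6.11 to 9.11 in Dex. The sulfate transporter Slc26a1 had values of 75.7 to 213 in Con and 28 to 330 in Dex (-0.31 ± 0.401, adjusted p = 0.634).

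**Figure D2:**
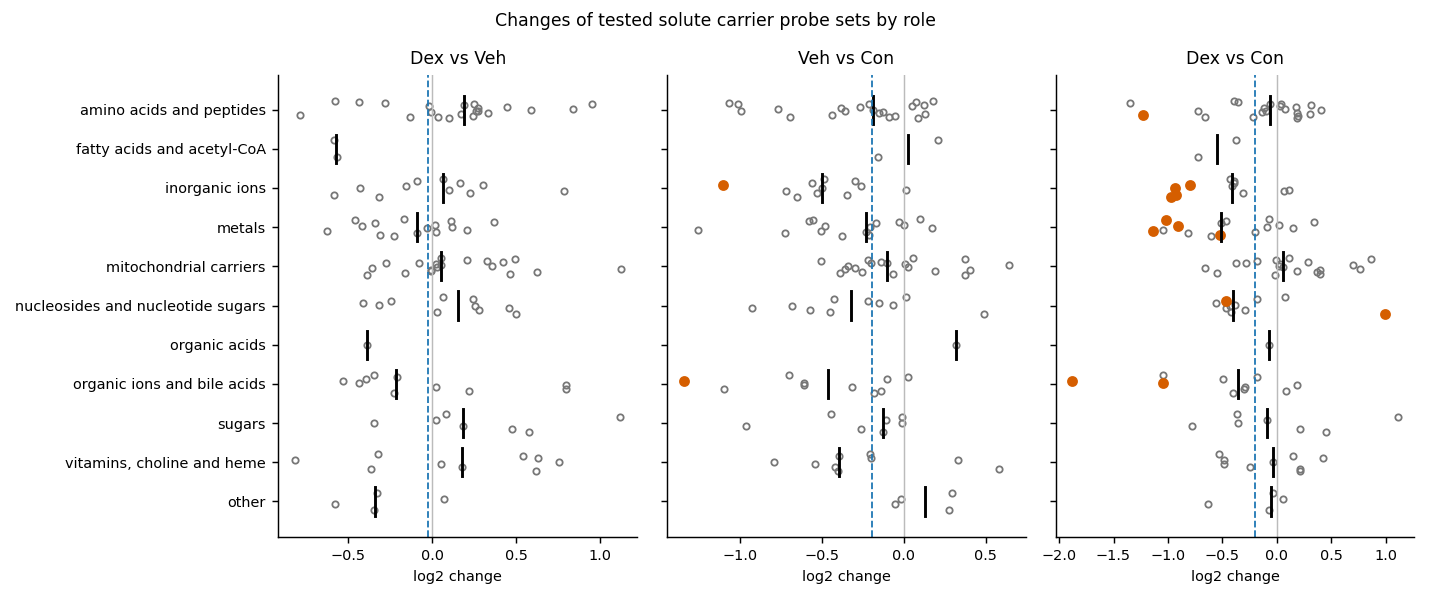
Log2 change (horizontal axis, first group minus second, 1 range per panel) of the 109 tested solute carrier probe sets by substrate class (vertical axis) in 3 panels, 1 per comparison. Each circle is 1 probe set, filled where it passed the threshold (0 in Dex vs Veh, 2 in Veh vs Con, 13 in Dex vs Con), the black bar is the class median and the dashed line the median of all 6784 tested probe sets; in Dex vs Con the bars of metals and inorganic ions lie at -0.51 and -0.41.

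Veh vs Con had 2 changed members of 109 (1.83%), beside 3.86% of all tested probe sets (1.19% higher, 2.67% lower), and both were lower in Veh: Slc22a30 and Slc20a1. Without an adjustment, 24 members had p under 0.05, 2 higher and 22 lower, a share of 22% beside 23.6% of all (5.44% higher, 18.1% lower). The count of changed members was 1 without Con 1, Con 7, Veh 4 or Veh 5 (Slc22a30 alone, with the adjusted p of Slc20a1 from 0.0527 to 0.0605), 4 without Con 5 or Veh 3, and 5 without Veh 9. These sets called 1.25% to 1.8%, 3.98% to 5.2% and 8.64% of all tested probe sets. With only the Veh and Con arrays in the fit the count was 8 (7.34%, beside 9.67% of all), and with array weights 17 (15.6%, beside 17.1%). With quantile normalization it was 1, beside 1.25% of all, and with the array median as a covariate 0, beside 0.31%. The nearest to the threshold were the orphan Slc35e1 at -0.69 ± 0.210 (adjusted p = 0.0591), the zinc transporter Slc30a4 at -1.26 ± 0.396 (adjusted p = 0.0652) and Slc4a2 at -0.49 ± 0.156 (adjusted p = 0.0673). Next came Slc5a6 at -0.96 (adjusted p = 0.0676), Slc35c2 at -0.42 (adjusted p = 0.0736) and, in the other direction, the choline transporter Slc44a1 at 0.58 ± 0.196 (adjusted p = 0.0790). A second probe set of Slc35e1 had -0.93 ± 0.365 (adjusted p = 0.125). Slc30a4 ranged from 27.8 to 48.6 in Con and 4.6 to 42.4 in Veh, so the groups overlapped and the spread was in Veh.

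Over the 109 members, 82 were lower in Veh than in Con, beside 4743 of all 6784 tested probe sets. The members' median was -0.21, beside -0.19 for all. Inorganic ion transporters were lower in 10 of 11 cases with a median of -0.50, and with quantile normalization in 10 of 11 with a median of -0.31. Organic ion and bile acid transporters were lower in 9 of 10 with a median of -0.46 (7 of 10 and -0.19 with quantile normalization). Other classes were also mostly lower. Metal transporters were lower in 12 of 15 with a median of -0.23 (14 of 15 and -0.21). The nucleoside and nucleotide sugar class was lower in 8 of 10 with -0.32 (8 of 10 and -0.13). The vitamin, choline and heme class was lower in 7 of 9 with -0.40 (5 of 9 and -0.07). The quantile-normalized median of all tested probe sets was -0.02. The sugar class was lower in 7 of 7 with a median of -0.13, but in 4 of 7 with a median of -0.18 under quantile normalization. Its largest fall, -0.96, was that of Slc5a6, a vitamin transporter placed there by its family number. Mitochondrial carriers were lower in 11 of 19, with a median of -0.10. The mitochondrial carriers Slc25a45 and Slc25a47 had changes of 0.65 ± 0.353 (adjusted p = 0.265) and 0.40 ± 0.231 (adjusted p = 0.284).

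**Figure D3:**
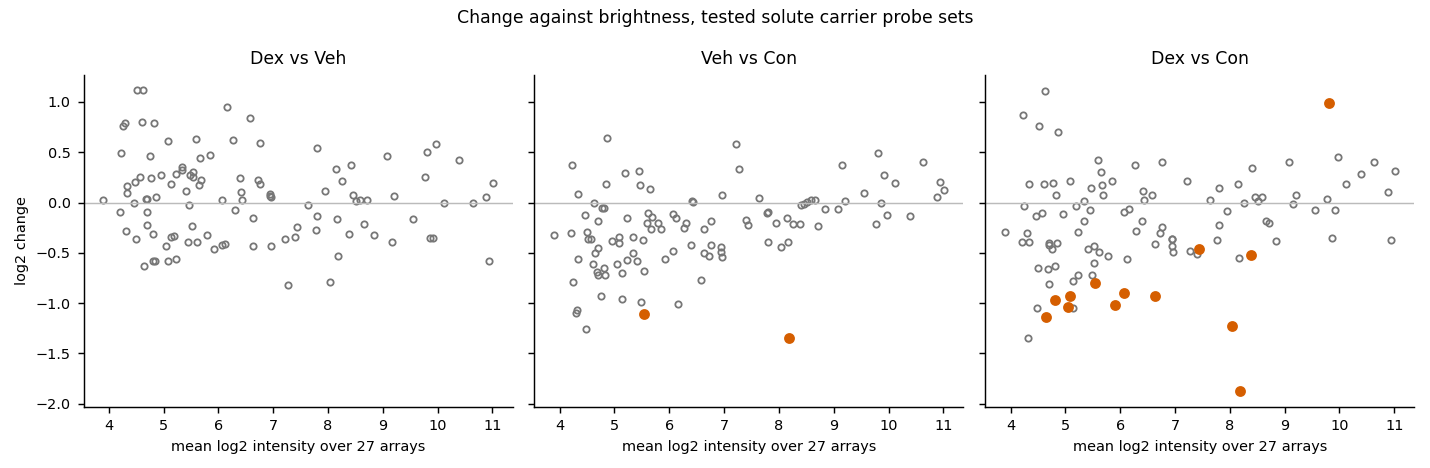
Log2 change (vertical axis) against mean log2 intensity over 27 arrays (horizontal axis) for the 109 tested solute carrier probe sets, 1 panel per comparison, with filled circles past the threshold. In Dex vs Con the dimmer 55 members have a median change of -0.39 and the brighter 54 one of -0.07, and the dimmer ones hold 7 of the 13 filled circles.

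In Dex vs Veh limma called 0 of the 109 members, beside 0.265% of all tested probe sets (0.0442% higher, 0.221% lower). Without an adjustment 21 members had p under 0.05, 15 higher and 6 lower, a share of 19.3% beside 15.2% of all (6.82% higher, 8.34% lower). The count was 1, Slc6a6, without Dex 8, without Dex 9 and with the array median as a covariate, and 0 under the other settings and sets tried. The median change of the members was 0.04 beside -0.03 for all, and 62 of 109 were higher in Dex, beside 46.6% of all. Some genes count more than once there. With 1 probe set per gene, 49 of 96 (51%) were higher and the median was 0.02.

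The lowest p values on the lower side were those of Slc6a6, of Slc27a2, an acyl-CoA synthetase and fatty acid transporter, of the folate transporter Slc46a1 and of the betaine transporter Slc6a12. Slc27a2 ranged from 1301 to 3658 in Con, 1588 to 3011 in Veh and 920 to 2434 in Dex, with overlap, and its change was -0.58 ± 0.186 in Dex vs Veh (adjusted p = 0.127) and -0.37 ± 0.186 in Dex vs Con (adjusted p = 0.164). Under quantile normalization Slc27a2 passed the threshold in Dex vs Con. The other tested member of its class, Slc27a4, had a change of -0.57 ± 0.270 in Dex vs Veh (adjusted p = 0.313). Slc46a1 had -0.82 ± 0.293 (adjusted p = 0.175), which was -0.35 without Dex 1 to 3, and Slc6a12 -0.43 ± 0.188 (adjusted p = 0.257).

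On the higher side stood the mitochondrial phosphate carrier Slc25a3 at 1.12 ± 0.377 (adjusted p = 0.147), Slc3a1, a subunit of the cystine and dibasic amino acid transporter, at 0.59 ± 0.200 (adjusted p = 0.153), the cationic amino acid transporter Slc7a2 at 0.84 ± 0.313 (adjusted p = 0.196) and Slc29a1. Slc25a3 is dim on this array, at 10.5 to 51.8 in Con, 7.3 to 36.1 in Veh and 13 to 67.5 in Dex, with overlap of all groups. Slc3a1 ranged from 76.3 to 146.6 in Con, 59.1 to 120.1 in Veh and 77 to 258.5 in Dex. Dex 2 and Dex 4, at 258.5 and 221.4, lay above every Con and Veh mouse, and under quantile normalization Slc3a1 passed the threshold in Dex vs Con. The insulin-responsive glucose transporter Slc2a4 had a change of 1.11 ± 0.506 in Dex vs Con (adjusted p = 0.127), from 4.2 to 60.3 in Con and 9.2 to 97.3 in Dex.

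The Dex mice were the most spread, among the members as over the whole array. Over the tested members the median within-group SD of log2 values was 0.609 in Dex, 0.481 in Veh and 0.426 in Con, beside 0.566, 0.469 and 0.375 over all tested probe sets. The members described next were singled out for their uneven Dex values after these were seen. The glucose-6-phosphate transporter Slc37a4, which feeds the last step of glucose release, had 679 to 1680 in Con (median 891), 534 to 1167 in Veh (median 903) and 577 to 2308 in Dex (median 1557). Dex 1 to 6 had 1252 to 2308, all above every Veh mouse, while Dex 7, 8 and 9 had 577, 663 and 650, below every Con mouse. Its change was 0.58 ± 0.248 in Dex vs Veh (adjusted p = 0.254), 0.23 without Dex 1 to 3, and 0.45 ± 0.248 in Dex vs Con (adjusted p = 0.210), 0.10 without them.

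The ornithine carrier Slc25a15 of the urea cycle had 1003 to 1897 in Con and 498 to 1687 in Veh. In Dex it had 4837 in Dex 1 and 5032 in Dex 3 and 737 to 1763 in the other 7 mice. Its change in Dex vs Con was 0.28 ± 0.300 (adjusted p = 0.541), and -0.29 without Dex 1 to 3. Slc7a2, which takes up arginine and ornithine, had 70.8 to 165.4 in Con, 33 to 114.6 in Veh, 162.8, 444.6 and 267.0 in Dex 1, 2 and 3, and 60.7 to 102.6 in Dex 4 to 9. Its change in Dex vs Con was 0.07 ± 0.313 (adjusted p = 0.902) with all arrays and -0.52 ± 0.246 (adjusted p = 0.188) without Dex 1 to 3, and in Dex vs Veh 0.84 and 0.25.

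The neutral amino acid transporter Slc38a4, bright in liver, had 1433 to 2221 in Con, 1548 to 2505 in Veh and 1690 to 3589 in Dex, where Dex 1 and Dex 2 had 3519 and 3589 and the next mouse 2400. Its change was 0.31 ± 0.137 in Dex vs Con (adjusted p = 0.115) and 0.10 without Dex 1 to 3. The glucose transporter Slc2a2, the main one of hepatocytes, had 714 to 1419 in Con, 624 to 1370 in Veh and 262 to 1268 in Dex, with 262.5 in Dex 2. Its change was -0.36 ± 0.210 in Dex vs Con (adjusted p = 0.246) and -0.04 without Dex 1 to 3. The related neutral amino acid transporter Slc38a2 had 35.1 to 131.4 in Con, 15.9 to 99.0 in Veh and 13.2 to 135.1 in Dex, with -0.72 ± 0.415 in Dex vs Con (adjusted p = 0.235) and -1.31 ± 0.400 without Dex 1 to 3 (adjusted p = 0.0484).

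**Figure D4:**
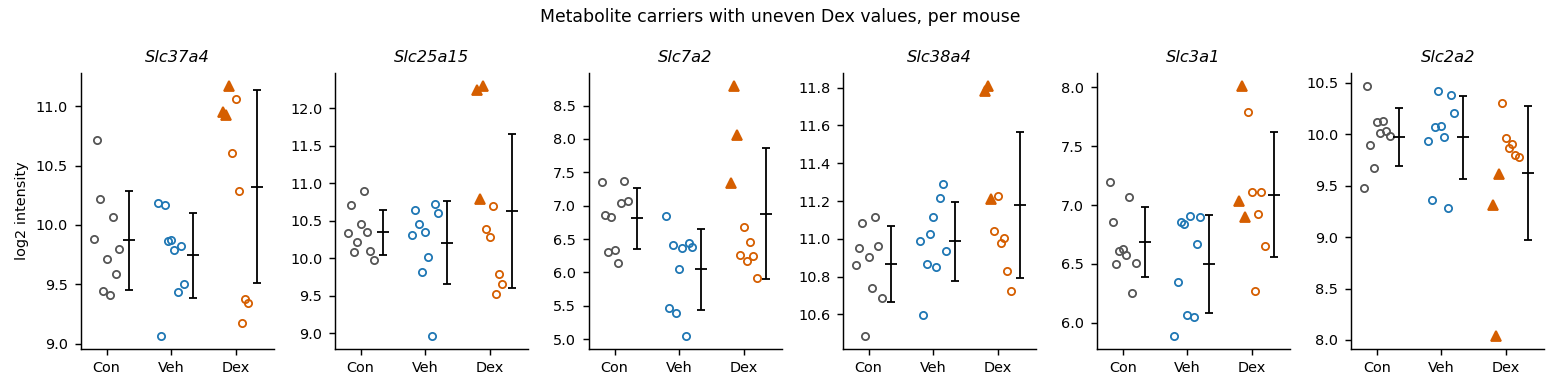
Log2 intensity per mouse (vertical axis, 1 scale per panel) in Con, Veh and Dex (horizontal axis) for 6 carriers with uneven Dex values, chosen after the values were seen. Points are mice spread sideways, filled triangles are Dex 1 to 3, and bars are mean and SD of 9 mice; Slc25a15 stands high in Dex 1 and Dex 3, and Slc37a4 low in Dex 7, 8 and 9.

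Mitochondrial carriers held no called member in any comparison. Of the 19 tested carrier probe sets, which stand for 15 genes, 12 were higher in Dex than in Con, beside 32.6% of all. Their median was 0.05, beside -0.20 for all. With quantile normalization 12 were higher with a median of 0.08, beside -0.04 for all. The glutathione-linked carrier Slc25a39 ranged from 1610 to 2224 in Con and 1357 to 2688 in Dex (0.11 ± 0.128, adjusted p = 0.595). The citrate carrier Slc25a1, which exports citrate for fat synthesis, had a change of 0.18 ± 0.130 (adjusted p = 0.341), with a second probe set at 0.05. The adenine nucleotide translocase Slc25a5 was read by 3 tested probe sets, with changes of -0.01, -0.18 and 0.87 (adjusted p = 0.973, 0.811 and 0.246).

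Other named members showed no call. The GABA and taurine transporter Slc6a13 was even, with 695 to 1063 in Con, 610 to 955 in Veh and 728 to 1206 in Dex (0.04 ± 0.119 in Dex vs Con, adjusted p = 0.856). The glutamate transporter Slc1a2 of the cells around the central vein had a change of 0.30 ± 0.297 (adjusted p = 0.506), and the monocarboxylate transporter Slc16a7 by -0.07 ± 0.278 (adjusted p = 0.887). Both probe sets of Slc23a3, a member of the ascorbate transporter family, had like changes of 0.15 and 0.22 in Dex vs Con (adjusted p = 0.726 and 0.574). The scaffold Slc9a3r1 and Slc66a2 had changes of -0.07 and 0.06 (adjusted p = 0.834 and 0.904).

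Among the 12 genes with more than 1 tested probe set, 13 pairs of probe sets could be set side by side. In Dex vs Con 8 of 13 pairs had the same sign and 4 lay more than 0.5 apart, with the largest gap, 1.29, in Slc29a1. All 4 changed genes with a second tested probe set (Slc6a6, Slc29a1, Slc11a2 and Slc39a4) had a smaller change there, and only that of Slc29a1 had the other sign.

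**Figure D5:**
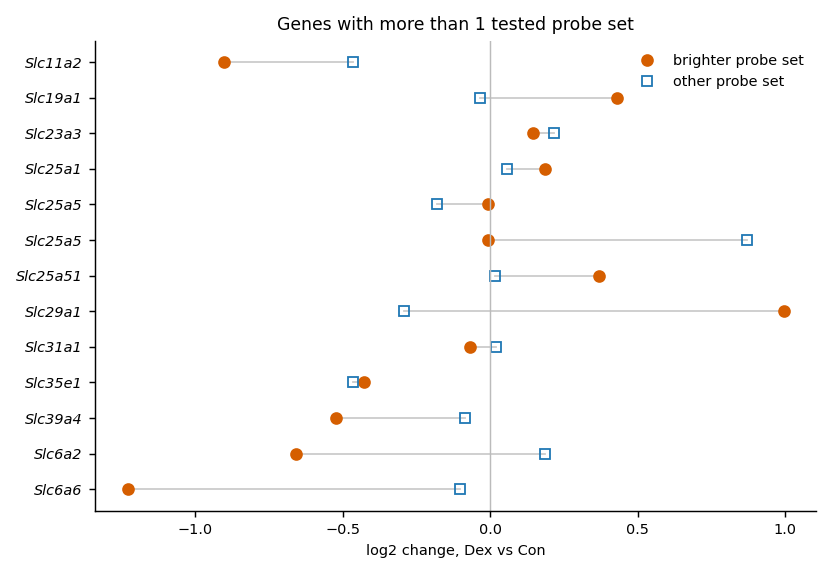
Log2 change in Dex vs Con (horizontal axis) of the brighter (filled circle) and another (open square) tested probe set of each gene with more than 1 (vertical axis; Slc25a5 has 2 pairs), joined by a line. The markers of Slc29a1 lie at 0.99 and -0.29, and those of Slc6a6 at -1.23 and -0.10.

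Other proteins of membrane transport were taken from a list of 49 genes (sodium pump, ABC transporters, aquaporins, mitochondrial channels, chaperones and scaffolds), of which 34 are on the array and 22 were tested. In Dex vs Con 5 of 22 fell and 0 rose, beside 13.2% and 3.26% of all tested probe sets, and the median was -0.28, beside -0.20. In Veh vs Con 1 of 22 fell, beside 2.67% of all, and in Dex vs Veh limma called 0. The falls in Dex vs Con were those of the drug and urate exporter Abcg2 at -1.57 ± 0.267 (adjusted p = 5.67e-04), the cholesterol exporter Abca1 at -1.17 ± 0.230 (adjusted p = 0.00165), the scaffold Pdzk1 at -1.32 ± 0.332 (adjusted p = 0.00926), the mitochondrial channel Vdac2 at -0.99 ± 0.252 (adjusted p = 0.00966) and the glycerol channel Aqp9 at -0.89 ± 0.234 (adjusted p = 0.0113). Abcg2 ranged from 198.8 to 424.9 in Con, 67.9 to 239.9 in Veh and 35.1 to 169.2 in Dex, so that Dex lay wholly below Con. It was also the gene that fell in Veh vs Con, by 0.96 (adjusted p = 0.0411).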

How the data were processed

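Liver RNA of 27 mice was hybridised to Affymetrix arrays. The deposited table gives 1 linear intensity per probe set and array. Its 2% trimmed means of 100.1 to 100.2 show that the authors' values had been scaled per array. For the summarising software and the target of that scaling: not stated in the labels or files used. Values under 2.6 (10th percentile of positive values) were set to it before log2. After leaving out 66 control probe sets and dim ones (above the array median in fewer than 9 of 27 arrays), 6784 were tested. limma 3.58.1 (R 4.3.3) fitted a mean per group over the 27 arrays together (24 residual degrees of freedom, eBayes with mean trend, two-sided, Benjamini-Hochberg, threshold 0.05). The probe annotation names 1 gene for 10855 probe sets, several for 396 and none for 1237, and all 183 members matched RefSeq by gene number. Arrays have no read depth, and their number limits the precision. Mice are the replicates.

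Named were members past the threshold, the 4 with the smallest p per direction and comparison, the 2 brightest per class, and 21 fixed genes, and where a gene has several probe sets the brightest stands for it. Uneven carriers, Slc4a2, Slc5a6, Slc35c2 and Slc38a2's call were singled out after values were seen. The members and lists were chosen with earlier results of these data known. The alternatives were quantile normalization, other floors and filters, a replicate block, 2 groups only, RNA quality ratios or the array median as covariates, array weights, no mean trend, and leaving out arrays.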

Additional observations from a re-analysis of the deposited data

Results flagged for a closer look

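In 144 sets of 9 mice (named probe sets by group) 11 held 1 mouse whose gap to the nearest other exceeded 0.493 of the range. For independent, normally distributed sets chance alone gives about 1 in 20. The sets here share mice and many members were named for their values, so the 11 cannot be weighed against that rate. All values here are log2 intensities. In Dex, Slc31a1 was low in Dex 3 (8.72, others 9.30 to 9.89), Slc2a2 in Dex 2 (8.04, others 9.32 to 10.31), Slc25a1 in Dex 2 (9.45, others 9.97 to 10.50) and Slc11a2 in Dex 1 (4.47, others 5.41 to 6.21). In Veh, Slc20a1 was high in Veh 3 (6.54, others 4.20 to 5.30), Slc39a1 in Veh 7 (10.03, others 7.83 to 8.91) and Slc44a1 in Veh 5 (8.34, others 7.16 to 7.74). In Con, Slc6a12 was high in Con 7 (7.74, others 6.79 to 7.25), while Slc6a13 was low in Con 8 (9.44, others 9.75 to 10.05), Slc46a1 in Con 9 (6.06, others 6.98 to 7.75) and Slc1a2 in Con 9 (4.27, others 5.47 to 6.01).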

How the results depend on the processing

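Of 39 counts of changed members under 13 alternatives, 29 stayed within 1.5 times the count given above. These 29 include the Dex vs Veh counts that stayed at 0, which tell little of stability. No named change that was called turned its sign. In Dex vs Con the count of 13 became 8 without a filter, 6 with the array median as a covariate and 5 without Dex 1 to 3 (4 of the 13 kept), and 8 to 23 when 1 array was left out. In Veh vs Con the count of 2 became 1 with quantile normalization and 1 with the beta-actin ratio, 8 with the 2 groups alone, 17 with array weights, 0 with the array median and 7 without Dex 1 to 3, and 1 to 5 when 1 array was left out. The members' median there moved from -0.21 to -0.09 with quantile normalization. In Dex vs Veh the count of 0 became 1 with the array median, and 0 to 1 when 1 array was left out. The cause was not tested. The array median and Dex 1 to 3 settings were chosen after seeing the data. The falls of Slc22a30 and Slc6a6 and the rise of Slc29a1 in Dex vs Con passed in all 13 alternatives and all 27 sets without 1 array. Slc22a30 in Veh vs Con missed with the array median (adjusted p = 0.126), and Slc20a1 there missed with quantile normalization, the beta-actin ratio and the array median (adjusted p up to 0.192). Replicate numbers gave no clear pairing: deviations of same-numbered mice correlated at -0.09 to 0.18 (Dex, Veh), -0.20 to 0.08 (Veh, Con) and -0.18 to 0.19 (Dex, Con). In the same order, 3, 1 and 2 of 9 mice correlated best with their own number. Between Dex and Veh 3 of the 9 correlations were over 0.1, so the check does not settle whether these groups were linked by number. With the replicate block the counts were 13 in Dex vs Con (11 of the 13 kept), 0 in Dex vs Veh and 2 in Veh vs Con. Dim members near the array median, such as Slc4a4, Slc12a2 and Slc11a1, are measured with least signal.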
